A study of Mus musculus with 40 samples.

Results

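The Gtl2-DMR was examined CpG by CpG. This is the differentially methylated region at the start of Meg3, the maternally expressed long noncoding RNA gene that is also called Gtl2. Every CpG listed on chr12 between 109540467 and 109541075 (mm10) was taken, in every library that lists any CpG there. This gave 31 positions in 27 of the 40 libraries of the series, and 507 of the 905 CpG values deposited. The positions span 608 bases around the start of Meg3, which RefSeq places at chr12:109540996-109571729 on the + strand of GRCm38.p6. CpGs are named here by their distance in bases from that start, so that -33 lies before the gene and +11 lies inside it.

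The mice carried LoxP sites around the IG-CGI, the CpG island in the upstream part of the intergenic IG-DMR, and the island was removed by Cre expressed from the Vasa promoter, which is active in germ cells. Offspring lacked the island on the paternal chromosome (IG-CGI ΔP), on the maternal chromosome (IG-CGI ΔM) or on both (IG-CGI ΔBi), and littermates with neither deletion were wild-type (WT). They are written ΔP, ΔM and ΔBi below. At E18.5, late in gestation, there were 2 WT, 2 ΔM, 7 ΔP and 5 ΔBi embryos. At E8.5, soon after gastrulation, there were 9 ΔP embryos and no other genotype, and at P21, around weaning, there were 1 WT and 1 ΔP pup. The design text of the series counts fewer embryos with the paternal deletion than the labels do, and the labels were followed. They give tail as the tissue throughout, whereas the methods of the study describe whole embryos at E8.5. The E18.5 embryos carry the name clone115 or clone74 in the labels, which do not say whether this marks a line, a litter or a parent. Each of these sets held 1 WT and 1 ΔM embryo, with 2 ΔP and 3 ΔBi embryos in clone115 and 5 and 2 in clone74. Each library came from 1 animal, and the files give a percent methylation per CpG without the number of reads behind it, so the depth of every value is unknown.

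At the Dlk1-Dio3 imprinted cluster, the paternal chromosome is normally methylated and the maternal one unmethylated at both DMRs. The IG-DMR acquires its methylation in the male germline, whereas the Gtl2-DMR is a secondary DMR that is methylated on the paternal chromosome after implantation, when the Meg3 promoter is silenced there. An imprinted DMR with 1 methylated and 1 unmethylated chromosome gives intermediate methylation in bulk DNA.

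The deposited positions could be set against sequence for the 300 bases around the Meg3 start held in RefSeq's promoter set (GRCm38.p6, + strand, chr12:109540746-109541045). The window is printed 5′ to 3′ because it holds 13 of the frequently listed CpGs, which are in capitals. The CpGs from -423 to -273 lie before it.
Meg3 promoter: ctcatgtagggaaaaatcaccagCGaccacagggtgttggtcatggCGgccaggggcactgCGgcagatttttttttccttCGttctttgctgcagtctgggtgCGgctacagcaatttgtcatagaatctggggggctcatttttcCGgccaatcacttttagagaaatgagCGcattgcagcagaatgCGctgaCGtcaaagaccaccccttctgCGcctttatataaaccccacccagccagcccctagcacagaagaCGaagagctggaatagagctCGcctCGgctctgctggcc
Each of the 13 CpGs was listed in the files, from -227 to +36. Its 13 CpGs compare with a median of 7 over the 32851 promoters of the same length, and 62.1% of those promoters held fewer. In the same window 4 other positions were listed, in 5 values that were all 0, and at these the reference has no CpG.

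Within this window the following CpGs are referred to most often below, with the CpG in question in capitals.
CpGs inside Meg3 (+11, +31, +36): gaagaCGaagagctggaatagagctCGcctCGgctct
CpG -33: accccttctgCGcctttatata
CpG -77: gagaaatgagCGcattgcagca
CpG -189: aggggcactgCGgcagattttt

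Some libraries went against their labels or stood apart from their group. At E8.5, 6 libraries carry the label IG-DMR but hold 105 CpG values that each lie in the Gtl2-DMR, and they were used here by the position of their CpGs. The ΔP embryo clone115_E8 had a mean of 95.9% over 29 IG-DMR CpGs in its other library, whereas the other 6 ΔP embryos at E18.5 lay between 2.31% and 24.2%. The ΔP pup, at 95.5% over the IG-DMR, also stood apart from those embryos. Both were nearer to the ΔM embryos, at 86.2% and 76.1%, than to the WT embryos, at 52.1% and 49.7%. For surviving ΔP pups, the study reports IG-CGI methylation similar to that of ΔP and ΔBi embryos at E18.5. Those values come from bisulfite pyrosequencing of the IG-CGI, a different measure from a mean over listed IG-DMR CpGs. At the Gtl2-DMR, the study reports a substantial increase in these pups and raised methylation in some ΔP embryos at E18.5. Genotypes were taken from the labels. The IG-DMR values of these 2 animals did not match those of the other ΔP embryos, and whether their genotypes are as labelled was not tested. The methylation values alone could not settle this, and counts at E18.5 are also given without clone115_E8. The E8.5 library 7_E4 lists 9 of the Gtl2-DMR CpGs, and the other E8.5 libraries list 17 to 21.

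How often each CpG was listed fell into 2 classes. Of the 31 positions, 19 were listed in 21 or more of the 27 libraries and 12 in 8 or fewer. The CpGs at -405, +11, +31 and +36 were listed in all 27 libraries, and 9 positions were listed in all 16 E18.5 libraries. The 19 frequent CpGs run from -423 (chr12:109540573-109540574) to +36 (chr12:109541032-109541033). They gave 475 of 513 possible values, and 15 of the 27 libraries listed each of them. The 12 rarely listed positions gave 32 values, of which 28 were 0. The other 4 values were all at -520 (chr12:109540476-109540477), which was chosen for mention after its values were seen. It lies before the window with sequence, so whether the reference has a CpG there was not checked. The position was listed at 100% in the WT embryo clone115_E4, at 100% in the ΔP embryos clone115_E1 and clone74_E3, and at 50% in the ΔP embryo clone74_E2. The positions at -445, -292, -186, -9, +44 and +79 were each listed in 1 library, at 0.

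The values also differed in kind along the region. Of the 394 values at the 16 frequent CpGs before the Meg3 start, 264 (67.0%) were exactly 0, 50 or 100, against 10 of 81 values at the 3 CpGs inside the gene. Zeros made up 56.3% of the values before the gene and 12.3% of those inside it. The CpGs inside the gene took 24 to 26 different values over 27 libraries, and -405, listed as often, took 13. Without read counts no interval can be given, and single values before the gene cannot be given an error.

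**Figure D1:**
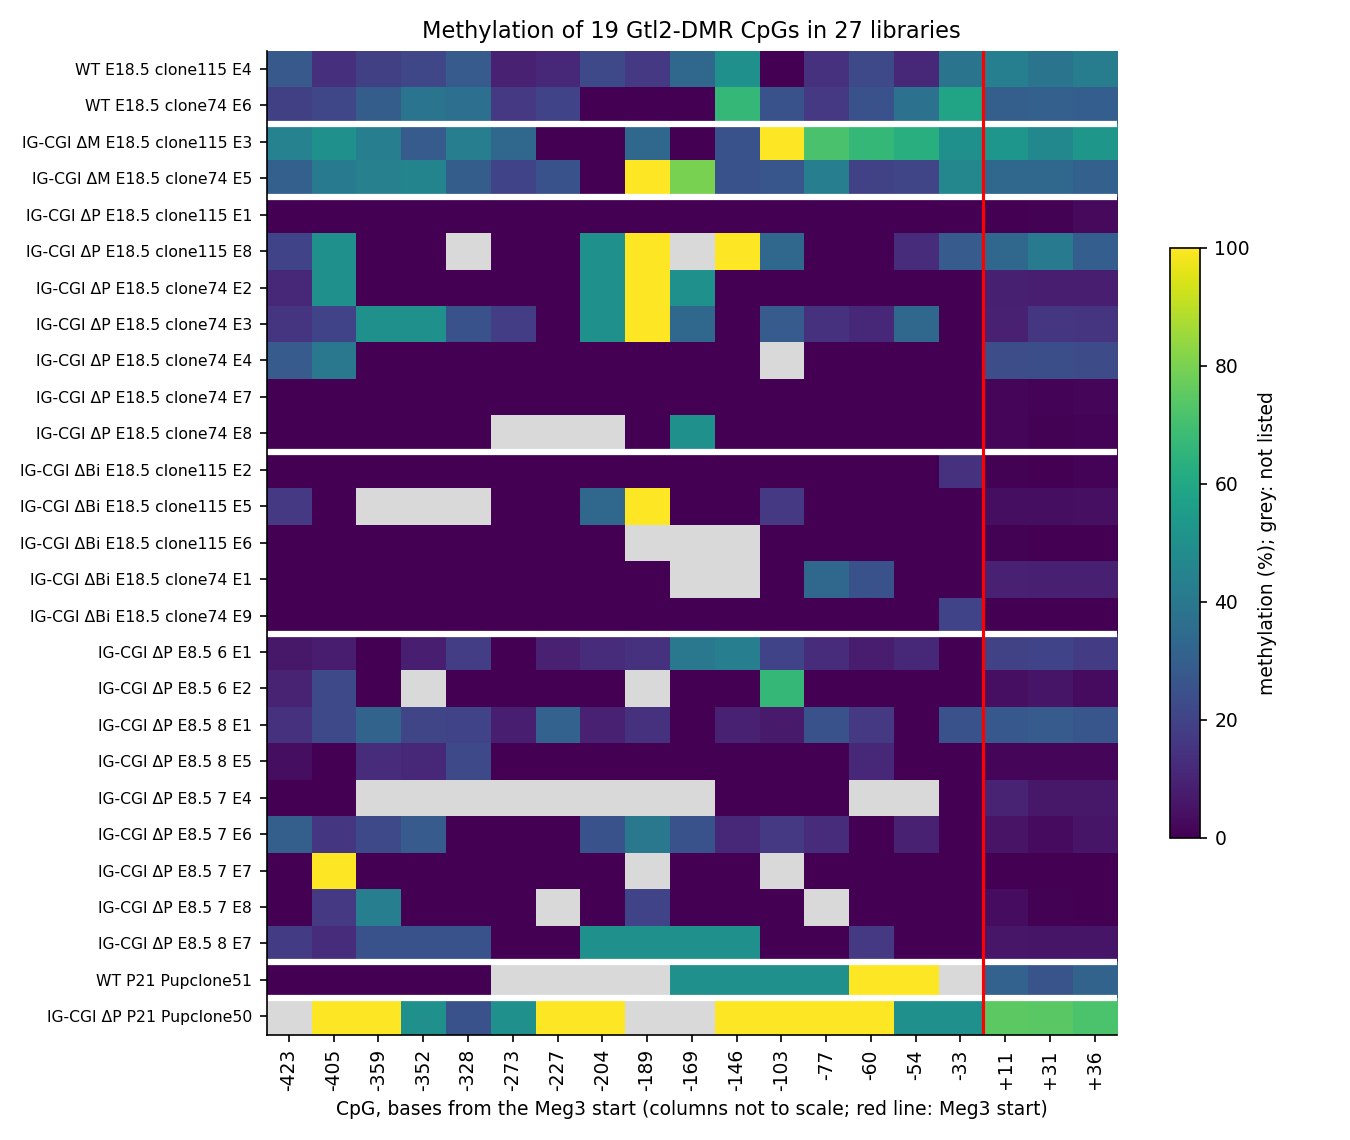
Percent methylation (colour, 0 to 100) of the 19 frequently listed CpGs (columns, by distance in bases from the Meg3 start, not to scale) in each of the 27 libraries (rows, by genotype and stage), with values that were not listed in grey. The IG-CGI ΔBi embryos are at or near 0 at most CpGs, the IG-CGI ΔP embryos differ from each other, and the IG-CGI ΔP pup is at 25% or more at each of these CpGs that it lists.

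The first question was at which CpGs methylation differs at E18.5 between embryos with and without a paternal IG-CGI. WT and ΔM embryos keep the paternal island (4 embryos), and ΔP and ΔBi embryos lack it (12 embryos). Methylation was lower without the paternal island at 18 of the 19 CpGs, with a median difference of -29.1 percentage points. At 13 CpGs the difference passed an exact two-sided permutation test over embryos with Benjamini-Hochberg adjustment over the 19 CpGs (adjusted p from 0.0052 to 0.0161 at these), which is 68.4% of the CpGs tested. Those 13 were -423, -359, -352, -328, -273, -227, -77, -60, -54, -33, +11, +31 and +36. The 6 that did not pass were -405, -204, -189, -169, -146 and -103.

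Within the clone115 and clone74 sets the direction was the same at most CpGs. In clone115 (5 embryos without and 2 with the paternal island) methylation was lower at 17 of 19 CpGs, with a median difference of -30.8 points. In clone74 (7 and 2 embryos) it was lower at 18 of 19, with a median of -22.5 points. Permuting within these sets alone also called 13 CpGs. The same number was called when the p-values were adjusted over 48 CpGs, those of the Gtl2-DMR together with 29 of the IG-DMR, at which ΔBi embryos have no library. Without clone115_E8, 16 CpGs were called. The number was 9 without ΔM embryo clone74_E5, and 10 without ΔM embryo clone115_E3 or WT embryo clone74_E6. Among the 9 CpGs listed by every embryo, 8 were called.

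The CpG at -33 (chr12:109540963-109540964), the last CpG of the reference before the Meg3 start, showed the largest difference among those listed in every E18.5 embryo. WT embryos were at 38.5% and 58.3%, and ΔM embryos at 46.3% and 50%. Of the 7 ΔP embryos, 6 were at 0 and clone115_E8 was at 28.6%. ΔBi embryos were at 0, 0, 0, 14.3% and 20%. Every embryo without the paternal island therefore lay below every embryo with it, and the means differed by -43.0 points, from 48.3% ± 8.25 (SD, n = 4) to 5.24% ± 9.96 (SD, n = 12), with an adjusted p of 0.0052 in the exact permutation test.

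The CpG at -77 (chr12:109540919-109540920) had a mean difference of -32.3 points, but the embryos with the paternal island differed widely. WT embryos were at 14.3% and 16.7%, and ΔM embryos at 42.9% and 71.4%. ΔP embryos were at 0 except for clone74_E3 at 14.3%, the level of the lower WT embryo. ΔBi embryos were at 0 except for clone74_E1, which at 33.3% lay above both WT embryos. The groups overlapped through these 2 embryos, and the adjusted p was 0.0152 in the exact permutation test.

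The 3 CpGs inside Meg3 took the most distinct values over libraries. At +11 (chr12:109541007-109541008), WT embryos were at 30.3% and 43.3%, and ΔM embryos at 33.7% and 52.5%. ΔBi embryos were at 0, 0.392%, 0.575%, 3.63% and 9.005%. The 7 ΔP embryos ranged from 0.234% to 33.8% with a median of 8.78%, and the highest of them, clone115_E8, overlapped the WT embryos. Embryos with the paternal island averaged 40.0% ± 10.0 (SD, n = 4) and those without it 7.69% ± 10.7 (SD, n = 12), with an adjusted p of 0.0065 in the exact permutation test.
At +31 (chr12:109541027-109541028), one of the 3 smallest differences among CpGs listed in every E18.5 embryo, the means differed by -28.5 points. ΔP embryo clone115_E8 was at 41.4% there, above both WT embryos at 30.7% and 38.3%. At +36 the same embryo was at 29.8%, just below the lower WT embryo at 29.97%, so the groups did not overlap. The 3 CpGs lay within 11.7 points of each other in every library, and that widest range was in clone115_E8.

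**Figure D2:**
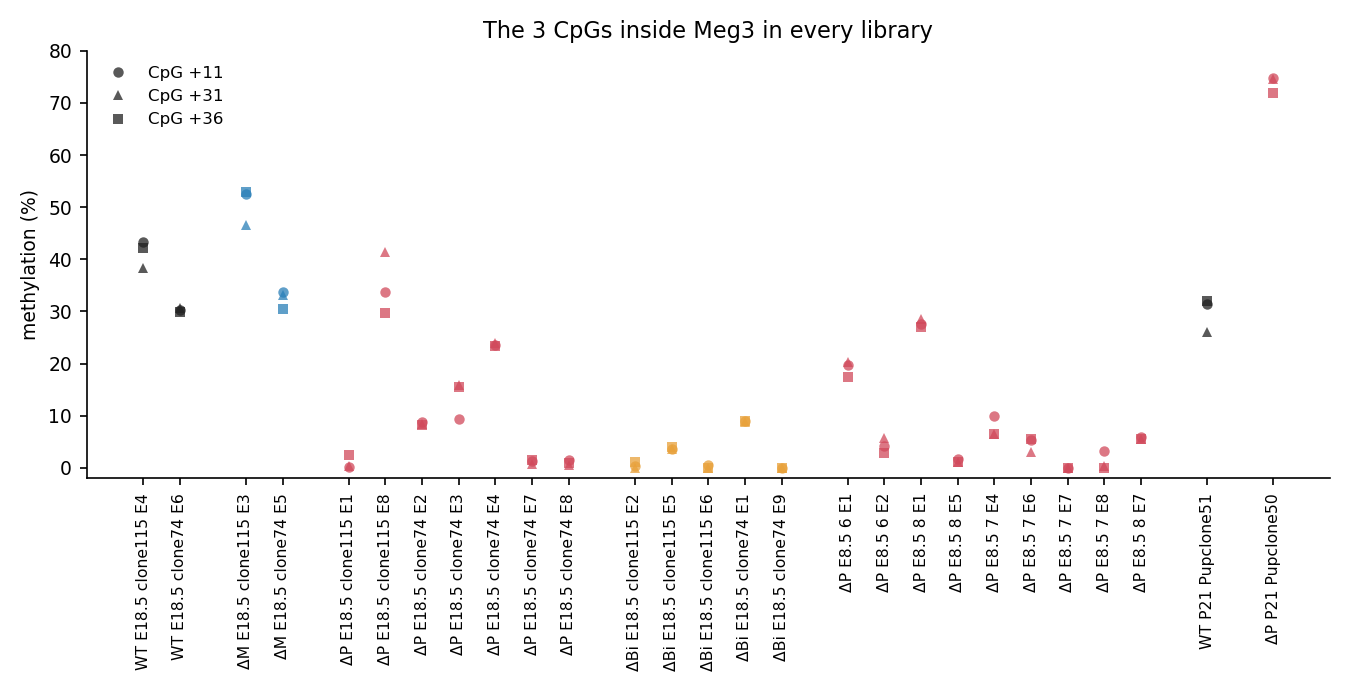
Percent methylation (y axis) of the CpGs at +11, +31 and +36 (circles, triangles and squares) in each of the 27 libraries (x axis, by genotype and stage, coloured by genotype). The 3 symbols of a library lie close together, the 5 IG-CGI ΔBi embryos are below 10%, and the IG-CGI ΔP pup is between 71.8% and 74.8%.

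The other CpGs with the smallest differences among those listed in every E18.5 embryo were at the upstream end. At -423, WT embryos were at 18.9% and 28%, ΔM embryos at 30.9% and 44.4%, and 4 of 5 ΔBi embryos at 0 with clone115_E5 at 16.7%. The ΔP embryos ranged from 0 to 28.6% with a median of 11.1%, and the highest, clone74_E4, was above both WT embryos. The mean difference was -22.9 points (adjusted p = 0.0065, exact permutation test). At -405 (chr12:109540591-109540592), 18 bases further, WT embryos were at 13.3% and 21.2% and ΔM embryos at 41.7% and 50%. All 5 ΔBi embryos were at 0. The ΔP embryos were at 0 in 3 cases and at 20%, 40%, 50% and 50% in the others, so that 4 of 7 reached or passed the lower WT embryo. The difference of -18.2 points did not pass the test (adjusted p = 0.17, exact permutation test).

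Taken by genotype, mean methylation was lowest in ΔBi embryos, and the test of ΔBi against ΔP is given further on. Over those of the 19 frequent CpGs that each embryo lists, ΔBi embryos averaged 3.61% ± 4.62 (SD, n = 5) and ΔP embryos 11.7% ± 12.1 (SD, n = 7). Without clone115_E5, which was at 100% at -189, the ΔBi mean was 1.73%, and without clone115_E8 the ΔP mean was 8.72%. WT embryos were at 24.3% and 26.4%, and ΔM embryos at 36.5% and 42.3%. The highest ΔP embryos were clone115_E8 at 29.4%, above both WT embryos, and clone74_E3 at 25.8%, between them. Of 19 CpGs, ΔBi embryos were lower than the embryos with a paternal island at 12 (63.2%) and ΔP embryos at 13 (68.4%), at an adjusted p under 0.05 in exact permutation tests that share the 4 control embryos. The median difference was -33.0 points for ΔBi and -26.4 points for ΔP.
The ΔP count lies close to the threshold, with adjusted p-values of up to 0.0487. It fell to 0 when ΔM embryo clone115_E3, ΔM embryo clone74_E5 or WT embryo clone74_E6 was left out, and to between 4 and 8 without WT embryo clone115_E4 or ΔP embryo clone115_E1, clone115_E8, clone74_E2, clone74_E4, clone74_E7 or clone74_E8. It was also 0 when adjusted over 48 CpGs of both regions, where the smallest adjusted p was 0.0582 in the exact permutation tests. Permuting within the clone sets called 7 CpGs in each of the 2 comparisons, and with medians in place of means each count was 0. At an unadjusted p under 0.05 in the exact permutation tests on means, 13 CpGs were lower in ΔP and 15 in ΔBi embryos.

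Set against the WT embryos alone, without a test, every ΔBi embryo lay below both WT embryos at 13 of 19 CpGs (68.4%) and every ΔP embryo at 5 of 19 (26.3%). The 5 were -328, -227, -60, -33 and +36, and the number was 8 without clone115_E8 and 9 without clone74_E3. At -204, -189, -169 and -103 a WT embryo was itself at 0, so no embryo could lie below it. Over the 15 CpGs at which both WT embryos were above 0, the ΔP embryos differed. Embryo clone74_E3 was at or above the lower WT value at 6 of 15 CpGs and clone115_E8 at 6 of the 14 it lists. The other 5 ΔP embryos were at or above it at 0 to 2 CpGs, as were the 5 ΔBi embryos. Embryos clone74_E3 and clone115_E8 shared 2 such CpGs, -405 and -54. Embryo clone74_E3 was at 50%, 50% and 25% at -359, -352 and -328 and at 0 at -33. Embryo clone115_E8 was at 0 at -359 and -352, did not list -328, and was the highest ΔP embryo at -33, +11, +31 and +36.

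When ΔBi embryos were set against ΔP embryos, 0 of 19 CpGs differed at an adjusted p under 0.05 (0%), and 0 had an unadjusted p under 0.05, in the exact permutation test. ΔBi embryos had the lower mean at 15 CpGs and the higher mean at 3. The largest gap was at -405, with 0 in all 5 ΔBi embryos against 22.9% ± 23.6 (SD, n = 7) in ΔP embryos (adjusted p = 0.87, exact permutation test). With 5 and 7 embryos this does not show that the genotypes have equal levels.

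Some CpGs were higher in ΔM than in WT embryos. Both ΔM embryos were above both WT embryos at 7 of 19 CpGs (36.8%), at -423, -405, -359, -273, -189, -103 and -77, and below both at 1 of 19 (5.26%), at -146. With 2 embryos on each side no test was made, and some CpGs separate by chance with so few. At +11, +31 and +36 the ΔM and WT embryos overlapped. The study reports unchanged Gtl2-DMR methylation in ΔM embryos. At -359 the ΔM embryos were at 42.9% and 43.5% and the WT embryos at 18.8% and 29.4%. At -103 one ΔM embryo was at 100% and the other at 26.7%, against 0 and 25% in WT.

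**Figure D3:**
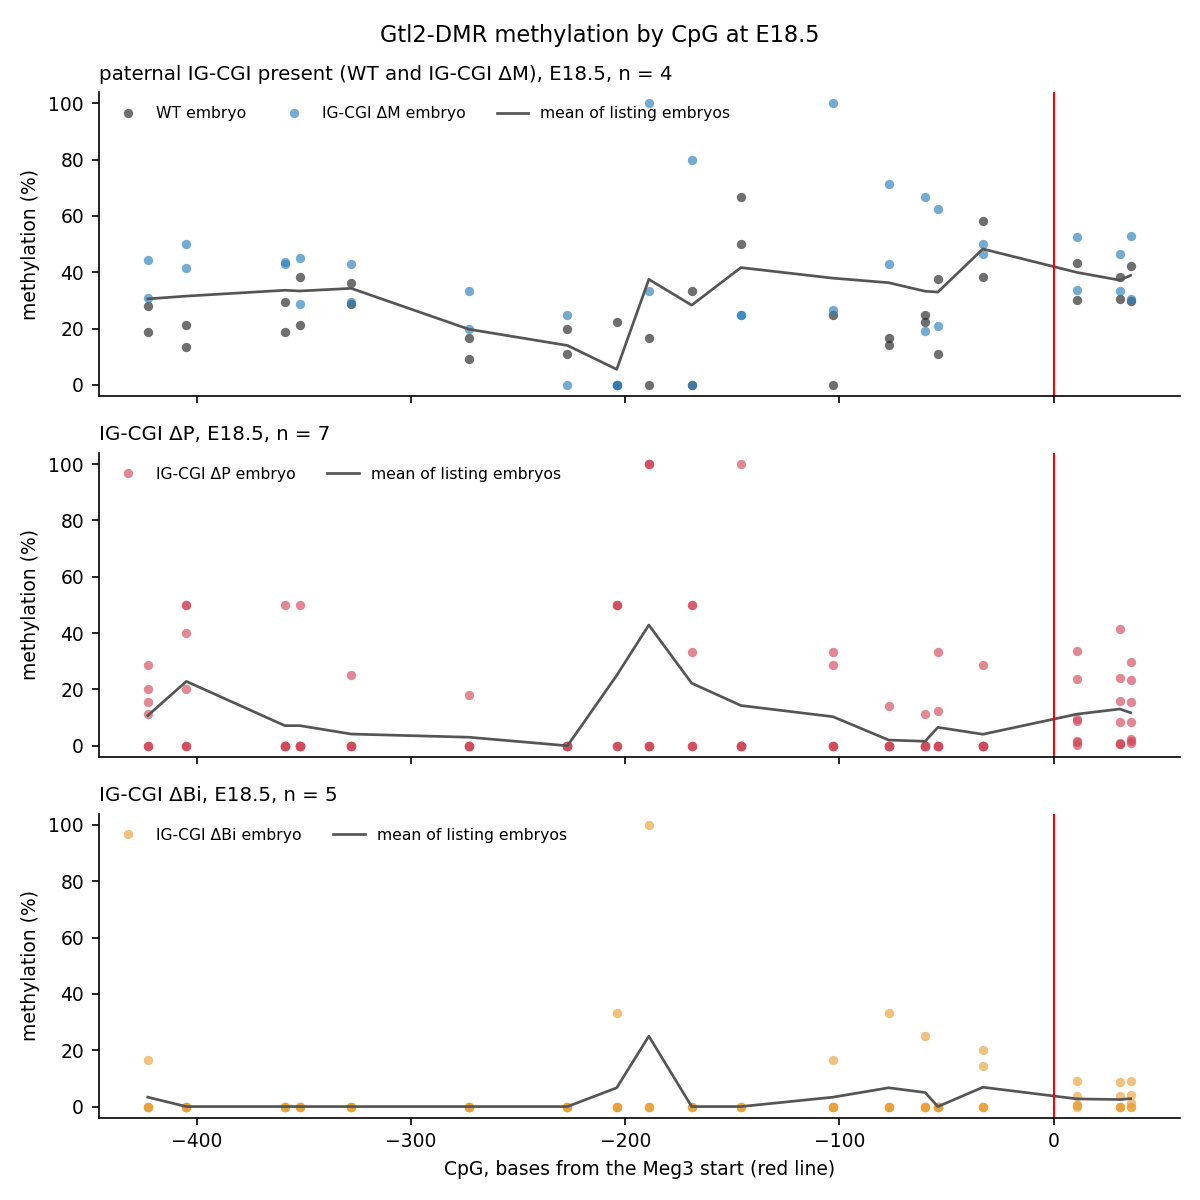
Percent methylation (y axis) of the 19 frequently listed CpGs by distance in bases from the Meg3 start (x axis, to scale) in E18.5 embryos, with 1 point per embryo and a line through the mean of the embryos that list the CpG. The 4 embryos with a paternal IG-CGI average 5.56% to 48.3%, and the IG-CGI ΔP embryos peak at -189 with 42.9%.

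No loss was detected at the CpGs -204, -189 and -169 in the middle of the region. The CpG at -189 (chr12:109540807-109540808) varied most among the ΔP embryos of E18.5, with an SD of 53.5 points. Of the 7 ΔP embryos, 3 were at 100% (clone115_E8, clone74_E2 and clone74_E3) and 4 at 0. Among ΔBi embryos clone115_E5 was at 100%, 3 were at 0 and 1 did not list the CpG. WT embryos were at 0 and 16.7%, and ΔM embryos at 33.3% and 100%. The means with and without the paternal island were 37.5% and 36.4% (adjusted p = 1, exact permutation test).
Its neighbours at -204 and -169, described after their values were seen, were also above 0 in these 3 ΔP embryos where listed. At -204 the embryos clone115_E8, clone74_E2 and clone74_E3 were each at 50% and the other 3 listed ΔP embryos at 0, against 0, 0, 0 and 22.2% in embryos with the paternal island. This CpG was the only one of the 19 with a higher mean without the island, by 11.1 points, and it did not pass the test (adjusted p = 0.47, exact permutation test). At -169 the embryos clone74_E2 and clone74_E3 were at 50% and 33.3%, and clone115_E8 did not list it. The other value above 0 among ΔP embryos of E18.5 there was 50% in clone74_E8. Of the 4 embryos with the paternal island, 2 were at 0, the WT embryo clone115_E4 was at 33.3% and the ΔM embryo clone74_E5 at 80%. The CpGs at -146 and -103 also did not pass, but their mean differences were -31.7 and -30.8 points (adjusted p = 0.109 and 0.0636, exact permutation test). At -146 the 3 ΔBi embryos that list it were lower than the embryos with the paternal island (adjusted p = 0.0452, exact permutation test).

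The window holds a few short matches to known motifs, searched on both strands. The letters TGACGTCA, the cAMP response element, occur once from -57 to -50 and enclose the CpG at -54, and 1.79% of 32851 promoters of this length hold them. The letters TGCCGC, the core of the site bound by Zfp57, a zinc finger protein that maintains imprinted methylation, occur once on the - strand from -190 to -185, and 11.6% of promoters hold them. This match encloses the CpG at -189. The letters CCAAT occur once, from -100 to -96, in the window between -103 and -77, and 37.4% of promoters hold them. The letters TATAA occur from -25 to -21 on the + strand and, overlapping these, from -28 to -24 on the - strand, after the CpG at -33, and 24.9% of promoters hold them. The letters GGGCGG do not occur, and 35.7% of promoters hold them. A match is a description of sequence and shows no binding.

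At the enclosed CpG -54, WT embryos were at 11.1% and 37.5%, ΔM embryos at 20.8% and 62.5%, and each of the 5 ΔBi embryos at 0. Of the 7 ΔP embryos, 5 were at 0, with clone115_E8 at 12.5% and clone74_E3 at 33.3%, so that the groups overlapped. The means differed by -29.2 points, and the CpG, described because of the motif match, passed the test (adjusted p = 0.0152, exact permutation test).

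Runs of CpGs that varied together were sought as neighbours whose percentages had a Pearson r of 0.7 or more over the libraries that list both, for at least 3 CpGs in a row. These correlations are given as a description over 19 to 27 libraries, which include all genotypes and stages and share an unknown depth. Of 18 neighbouring pairs, 11 reached 0.7, and the median r was 0.77. There were 2 runs. The first held 3 CpGs, -359, -352 and -328, over 31 bases. The second held 8 CpGs over 139 bases, from -103 (chr12:109540893-109540894) through the Meg3 start to +36. Among E18.5 libraries alone the second run was identical in extent, and the first extended to -273. The CpGs in runs fell from 11 to 7 at a threshold of 0.8, and to 7 with Spearman's rho in place of Pearson r.

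The first run was at 0 in most embryos without a paternal island. In ΔP embryos at E18.5, -359 and -352 were at 0 in 6 of 7 embryos and both at 50% in clone74_E3. In ΔBi embryos both were at 0 in the 4 embryos that list them. In WT embryos -352 (chr12:109540644-109540645) was at 21.4% and 38.5%, and in ΔM embryos at 28.6% and 45%. The last CpG of the run, -328 (chr12:109540668-109540669), separated the groups, with 28.6% to 42.9% in the 4 embryos with a paternal island against 25% in clone74_E3 and 0 in the other 9 listing embryos (adjusted p = 0.0063, exact permutation test).

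With the mean of each genotype and stage subtracted, fewer neighbours kept their correlation. The number of pairs at 0.7 or more fell from 11 to 5, the median r from 0.77 to 0.52, and the only run left was that of the 3 CpGs inside Meg3, with r of 0.97 between +11 and +31 and 0.96 between +31 and +36. Between -54 and -33, 21 bases apart, r fell from 0.74 to 0.22. Before the gene, 3 pairs stayed at 0.7 or more, with r of 0.72 between -359 and -352, 0.87 between -204 and -189 and 0.79 between -77 and -60. At -204 and -189 the r was higher than before the means were removed, when it was 0.75 over 20 libraries. The lowest r with the means removed was -0.21, between -405 and -359. Outside the gene, the CpG whose levels were most like the mean of the 3 CpGs inside it was -273, with r of 0.85 over 24 libraries, and the least alike was -189, with r of 0.20 over 21 libraries. By Spearman's rho both ends of this order changed, with -146 most alike (0.77) and -169 least alike (0.35).

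**Figure D4:**
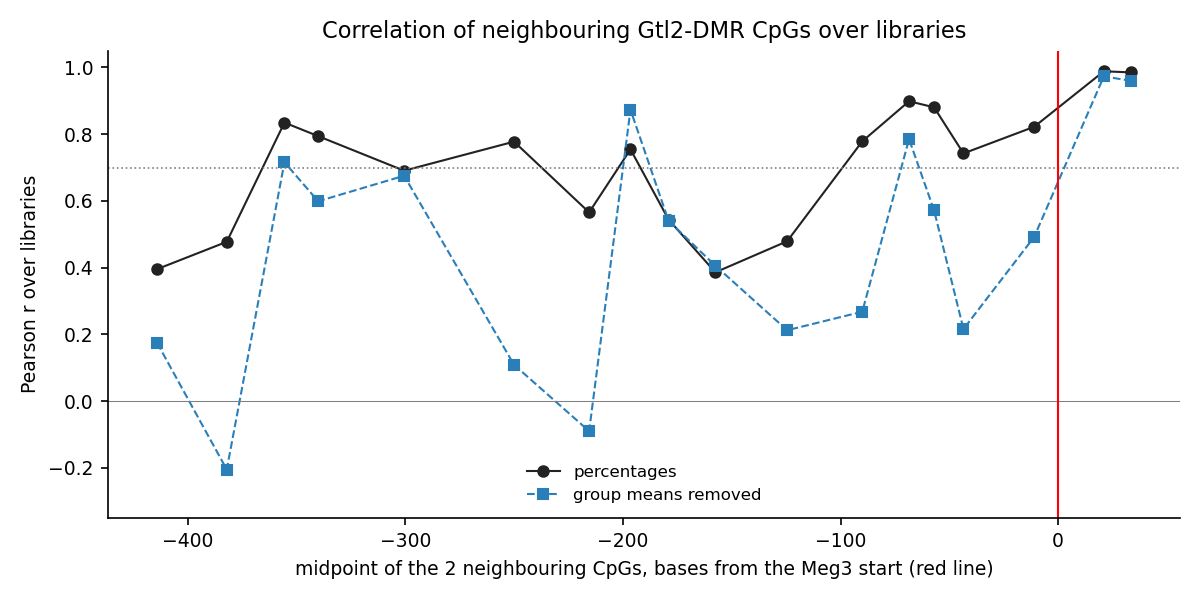
Pearson r over libraries (y axis) between neighbouring CpGs, placed at their midpoint in bases from the Meg3 start (x axis), for the percentages (circles) and after subtracting the mean of each genotype and stage (squares), with 0.7 as a dotted line. Both series are above 0.95 inside the gene, and before it most squares lie below the circles.

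Whether the loss differed along the region was tested with the 19 CpGs divided at their largest gap, of 55 bases, into 5 upstream CpGs (-423 to -328) and 14 downstream CpGs (-273 to +36). Upstream CpGs averaged 32.7% ± 8.94 (SD, n = 4) with the paternal island and 6.99% ± 10.3 (SD, n = 12) without it. Downstream CpGs averaged 32.3% ± 8.44 (SD, n = 4) and 8.72% ± 10.6 (SD, n = 12). The 2 losses differed by -2.15 points, which was not detectable (p = 0.53, exact permutation test over 16 embryos), and with each embryo left out the value ranged from -3.34 points without WT embryo clone115_E4 to -0.898 points without clone115_E8. Splitting the CpGs into 9 and 10 instead, between -189 and -169, gave a difference of 13.7 points in the other direction, with the larger loss in the downstream part (p = 0.037, exact permutation test), and a boundary at the Meg3 start gave 7.72 points (p = 0.16, exact permutation test). No difference in loss along the region therefore held over these divisions.

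In ΔP embryos the same 2 parts were compared within each embryo. At E18.5 the upstream CpGs averaged 10.8% ± 11.96 and the downstream CpGs 11.9% ± 12.7 (SD, n = 7), with the upstream part higher in 2 of 7 embryos (difference -1.13 points, p = 0.70, exact sign-flip permutation test). At E8.5 the upstream CpGs averaged 13.4% ± 7.58 and the downstream CpGs 8.08% ± 7.03 (SD, n = 9), with the upstream part higher in 7 of 9 embryos (difference 5.27 points, p = 0.082, exact sign-flip permutation test). The E8.5 difference was 6.95 points without embryo 6_E1 (p = 0.023, exact sign-flip permutation test) and 3.43 points without embryo 7_E7, whose upstream mean of 20% rests on the 1 value of 100% at -405 (p = 0.16, exact sign-flip permutation test). With a split into 9 and 10 CpGs it was 3.31 points (p = 0.25, exact sign-flip permutation test), and with the boundary at the Meg3 start 1.77 points (p = 0.55, exact sign-flip permutation test). In the 3 embryos whose libraries are labelled Gtl2-DMR it was 11.4 points, which with 3 embryos cannot pass the test. Without clone115_E8 the E18.5 difference turned to 1.26 points (p = 0.75, exact sign-flip permutation test). Whether the difference between the parts itself changed with stage was not tested.

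**Figure D5:**
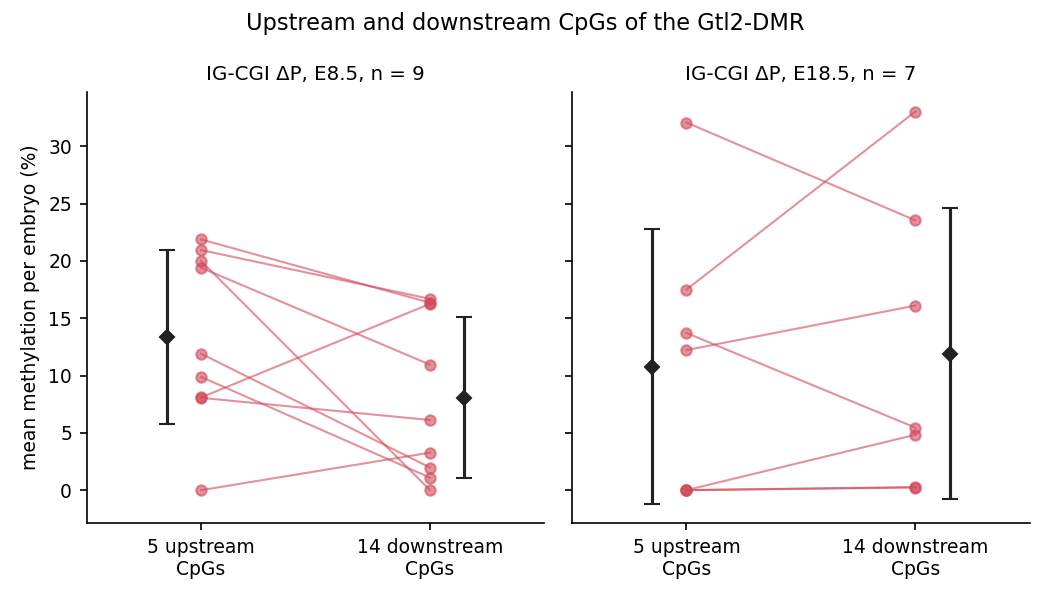
Mean percent methylation per embryo (y axis) over the 5 upstream and the 14 downstream CpGs (x axis) in IG-CGI ΔP embryos at E8.5 (left, n = 9) and E18.5 (right, n = 7), with a line per embryo and diamonds with bars for the mean ± SD. The upstream part is higher in 7 of 9 embryos at E8.5 and in 2 of 7 at E18.5.

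The second question was whether CpGs in ΔP embryos changed between E8.5 and E18.5. At an adjusted p under 0.05, 0 of 19 CpGs differed (0%), and 0 had an unadjusted p under 0.05, in the exact permutation test of 9 against 7 embryos. The mean at E8.5 was lower at 12 CpGs and higher at 7, with differences from -19.8 to 9.66 points and a median of -1.64. The E8.5 libraries include the 6 labelled IG-DMR, and with the 3 labelled Gtl2-DMR alone 0 of 15 CpGs differed. With 9 and 7 embryos, and fewer in the second comparison, this does not show that levels were equal at both stages. By the methods of the study the tissue also differed between the stages, and tissue and stage cannot be told apart.

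Single E8.5 embryos carried methylation at particular CpGs. At -33 a value above 0 was listed in 1 of 9 E8.5 embryos, 8_E1 at 25%, as in 1 of 7 at E18.5. The same embryo was the highest at E8.5 at +11, with 27.5% against a median of 5.44% over the 9 embryos, and at +31 and +36, with 28.6% and 26.9%. Embryo 6_E1 followed, with 19.7%, 20.3% and 17.5%, and embryo 7_E7 was at 0 at all 3. That last embryo was nevertheless at 100% at -405, its only value above 0 among 17 listed, where the median of the 9 embryos was 15.8%. At -359, E8.5 embryos ranged from 0 to 42.9% with a median of 17.4% over 8 embryos, whereas 6 of 7 embryos were at 0 at E18.5 (means 16.8% and 7.14%, adjusted p = 0.87, exact permutation test). At -189 the 6 listing E8.5 embryos lay between 0 and 50%, and none was at 100%.

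The P21 pups were 1 WT and 1 ΔP animal, so their differences have no replicate check. Of 13 CpGs that both list, the ΔP pup was higher by more than 20 points at 10 (76.9%), lower by more than 20 at 1 and within 20 at 2. One of the last is the rarely listed position -506, at 0 in both, and over the frequent CpGs the ΔP pup was higher at 10 of 12. Before the gene the WT pup was listed only at 0, 50% or 100%, and so was the ΔP pup except for 25% at -328. The step between such values mostly exceeds 20 points, so the differences there are coarse. The ΔP pup was higher by at most 100 points, at -405 and -359, and the next were 50 points, at -352, -146, -103 and -77. The WT pup was at 0 at each of the 5 upstream CpGs. The ΔP pup was at 100% at -405, at 100% at -359 (chr12:109540637-109540638), at 50% at -352 and at 25% at -328, and did not list -423. WT embryos at E18.5 were between 13.3% and 38.5% at these 4 CpGs. The WT pup was therefore below both WT embryos there.
In the middle of the region the WT pup was listed at higher values of the same coarse kind. It was at 50% at -169, -146, -103 and -77 and at 100% at -60 and -54, where the ΔP pup was at 100% and 50%. The only CpG at which the ΔP pup was lower was -54. Inside Meg3 both pups had finely resolved values. The WT pup was at 31.4%, 26.0% and 32.0% at +11, +31 and +36, against 29.97% to 43.3% in the WT embryos of E18.5, and the ΔP pup was at 74.8%, 74.5% and 71.8%. These 3 values were the highest of all 27 libraries at their CpGs, above the 7 ΔP embryos at E18.5 with a highest value of 41.4%. This pup is also the animal with an IG-DMR mean of 95.5%, against 32.2% in the WT pup, and the part of that in the Gtl2-DMR values was not tested.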

How the data were processed

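Genomic DNA was bisulfite converted, made into libraries by post-bisulfite adaptor tagging (PBAT), amplified by PCR, captured with RNA probes and sequenced. Per the submitters' processing notes, bcl2fastq 2.15.0.4, Bismark and Bowtie2 were used with mm10. The values deposited are percent methylation per CpG, without coverage, so neither depth nor duplicates could be weighed, and no interval or detection floor was computed. Percentages were used as deposited, with 1 library per animal. No 2 of the 27 libraries held identical values. mm10 and the RefSeq tables (GRCm38.p6) are the same assembly.

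CpGs listed in at least 14 of 27 libraries were called frequent. Group means were compared by exact two-sided permutation over embryos where enough embryos listed the CpG (for embryos with against without the paternal IG-CGI, 3 and 6), with Benjamini-Hochberg adjustment over CpGs. The segments were compared within embryos by exact sign flips. Each p-value is the share of relabellings of the embryos, or of sign flips, that gave a difference at least as large in size. Embryos were treated as independent, and the labels do not identify litters. CpGs were named with values by rule. Of those that no E18.5 library lacks, the 3 largest and 3 smallest differences between embryos without and with the paternal IG-CGI were taken, then the CpG that varied most among ΔP embryos of E18.5, the 3 with the largest difference between pups, the ends of runs, and the most and least often listed ones. The CpGs, segments and rules were chosen with earlier results of these data known. Exact tests replaced the parametric tests of the study because groups are small. Alternatives left out each embryo, changed the listing minimum, the statistic or the segment boundary, permuted within the clone sets, or adjusted over both regions. The tests were checked on simulated data. Python 3.11.15, numpy 2.4.6, pandas 2.3.3 and matplotlib 3.10.9 were used.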

Additional observations from a re-analysis of the deposited data

Results flagged for a closer look

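Within groups of 4 to 10 embryos, 47 sets of values (per CpG named in the report, and the means over the region, its parts and its listed CpGs) were checked for 1 embryo whose distance to the next was more than chance would allow at the 95% level of Dixon's test. That level marks about 1 in 20 sets when nothing stands apart, and 14 values were marked. In most of the marked sets all embryos but 1 were at 0, which leads to a mark whatever the size of the remaining value. The rate of 1 in 20 does not hold for such sets, so the number of marks cannot be set against it.

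Of the marks in ΔP embryos at E18.5, 4 belong to clone74_E3. It was at 50% at -359 and at 50% at -352, at 25% at -328 and at 14.3% at -77, with every other listing embryo at 0 at these CpGs. Embryo clone115_E8 was marked at -33, where it was at 28.6% and the other 6 at 0. In ΔBi embryos, clone115_E5 was marked at -423 (16.7%), -189 (100%) and -103 (16.7%) and for its upstream mean of 8.33%, and clone74_E1 at -77 (33.3%), each against 0 in the other listing embryos. At E8.5, embryo 7_E4 was marked for listing 9 CpGs, 7_E7 for 100% at -405, 6_E2 for 66.7% at -103 and 8_E1 for 25% at -33. The part of read depth in these values was not tested.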

How the results depend on the processing

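No paired analysis was possible because each embryo has 1 genotype and 1 stage, so the genotypes and stages compared share no embryo. Permutation within the clone sets is given below, and the parts of the region were compared within embryos.
The number of CpGs lower without the paternal IG-CGI (13) ranged from 9 to 16 when each embryo was left out, and was 8 when it was restricted to the 9 CpGs listed by every embryo. For ΔP alone (13) it was 0 to 10 when each embryo was left out, 0 with medians, 7 with permutation within the clone sets and 0 when adjusted over both regions. For ΔBi alone (12) it was 0 with medians and 7 with permutation within the clone sets. For ΔBi against ΔP, and for E8.5 against E18.5, the count was 0 under each alternative run. The difference in loss between upstream and downstream CpGs reversed with a split into 9 and 10 CpGs (13.7 points) and with the boundary at the Meg3 start (7.72 points), and ranged from -3.34 to -0.898 points when each embryo was left out. Within ΔP embryos at E18.5 the difference between the parts ranged from -2.75 to 1.26 points when each embryo was left out, and was 3.78 points with a split into 9 and 10 CpGs and 2.01 with every listed position. At E8.5 it ranged from 3.43 to 6.95 points when each embryo was left out, and was 3.31 with a split into 9 and 10 CpGs, 1.77 with the boundary at the Meg3 start and 11.4 in the 3 embryos labelled Gtl2-DMR. The CpGs in runs (11) were 7 at r of 0.8, 7 with Spearman's rho and 3 with group means removed. The CpGs at which every ΔP embryo was below WT (5) were 8 without clone115_E8, and 5 to 9 when each embryo was left out. The causes of these changes were not tested. Adjustment over both regions and the boundary at the Meg3 start were chosen after seeing the data. Depth is unknown at every CpG.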
